A study of Mus musculus with 16 samples.

Results

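The 10 genes described here are bone matrix genes and osteogenic regulators: Ibsp, Spp1, Bglap, Bglap2, Sparc, Alpl, Runx2, Sp7, Tnfrsf11b and Mgp. They were chosen by symbol from the 49139 named genes of the count tables, and each matched 1 row. The choice used their differences between GFP and mCherry cells in these tumours, so those differences are described with no p-value. Counts of the 10 genes past a threshold in those contrasts are a description as well. The cells are 4T07, a mouse mammary carcinoma line, not bone cells.

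The study grew tumours from 250000 4T07 cells, GFP cells and mCherry cells in equal parts, in the mammary fat pad of female hybrids of Balb/cJ and Bl6 mice. PD1KO Jedi T cells, whose receptor recognises a GFP peptide, were given by vein on day 7 or 15 after the cancer cells, and tumours were taken 7 days later. The series' title sets the question of how quiescent cancer cells resist T cell attack. The groups were surviving GFP cells of tumours injected on day 7 (n = 3), mCherry cells of the same tumours (n = 3), GFP cells of tumours injected on day 15 (n = 3), mCherry cells of those tumours (n = 3), and mCherry cells of control tumours that held no GFP cells and received no Jedi T cells (n = 4). No group held GFP cells from a tumour without Jedi T cells, so the reporter and the T cell attack cannot be told apart. Likewise, day 7 libraries came from sequencing run 1 and all others from run 2, so day and run cannot be told apart, and the controls belong to run 2. The labels read here state no mouse ages. For the control tumours they give no number of injected cells and no day of harvest. In comparisons with controls, a difference in tumour age therefore cannot be told apart from the T cell attack or the reporter.

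Libraries held 9412040 to 14535791 counts in day 7 GFP cells, 12942893 to 19970822 in day 7 mCherry cells, 21183324 to 24880582 in day 15 GFP cells, 21832170 to 22248031 in day 15 mCherry cells and 24367417 to 32808354 in controls. Levels are CPM, counts scaled to a common library total with edgeR's TMM factors over all 16 libraries. The mesenchymal tumour genes Fn1 and Vim led their list, whose 8 genes summed to 6520 to 31590 CPM per library, and the keratins Krt8 and Krt18 were measured in every group. The defining T and NK cell markers summed to at most 5.45 CPM. In bulk libraries, fewer cells of a type and less RNA per cell cannot be told apart.

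Bone matrix forms when osteoblasts lay down collagen I and load it with acidic proteins that bind calcium. The transcription factor Runx2 acts early in this lineage and Sp7 (osterix) after it. Alkaline phosphatase (Alpl) then frees phosphate for mineral, bone sialoprotein (Ibsp) helps mineral to start, and osteopontin (Spp1), osteocalcin (Bglap, Bglap2) and matrix Gla protein (Mgp) bind mineral or limit it. Sparc (osteonectin) binds collagen and calcium, and osteoprotegerin (Tnfrsf11b) is a decoy receptor that keeps RANKL from driving osteoclasts. Tumour cells, macrophages and fibroblasts also make several of these proteins: Spp1 is made by macrophages, and Sparc and Mgp by endothelial cells, fibroblasts and pericytes.

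Sequences are shown first, for Ibsp, for Spp1 of the same gene cluster and for the osteocalcin genes. Ibsp and Spp1 lie in 1 cluster of acidic matrix genes on chromosome 5, Ibsp at chr5:104299171-104311469 and Spp1 at chr5:104435118-104441050, both on the plus strand (GRCm38, GENCODE M21). Bglap (chr3:88383501-88384464) and Bglap2 (chr3:88377736-88378699) lie side by side on the minus strand of chromosome 3. RefSeq promoters (GRCm38.p6) were at hand for 6 of the 10 genes: Ibsp, Spp1, Bglap, Sparc, Alpl and Runx2. The 250 bases before the RefSeq start site are printed for 3 of them, 5′ to 3′ on the gene's strand. That site can differ from the GENCODE start. The Ibsp window ends at 104299286, inside the GENCODE gene, and the Sparc window lies wholly inside its GENCODE gene. Capitals mark matches, on either strand, to 4 motifs searched by their letters: the Runx core ACCACA, the CCAAT box CCAAT, the cyclic AMP response core TGACG and the STAT motif TTCNNNGAA.
Ibsp promoter, chr5:104299037-104299286, plus strand: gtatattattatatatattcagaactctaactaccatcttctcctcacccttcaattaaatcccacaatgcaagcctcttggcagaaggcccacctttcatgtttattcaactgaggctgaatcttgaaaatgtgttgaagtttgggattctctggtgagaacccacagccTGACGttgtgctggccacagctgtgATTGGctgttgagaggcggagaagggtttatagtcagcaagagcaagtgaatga
Spp1 promoter, chr5:104434861-104435110, plus strand: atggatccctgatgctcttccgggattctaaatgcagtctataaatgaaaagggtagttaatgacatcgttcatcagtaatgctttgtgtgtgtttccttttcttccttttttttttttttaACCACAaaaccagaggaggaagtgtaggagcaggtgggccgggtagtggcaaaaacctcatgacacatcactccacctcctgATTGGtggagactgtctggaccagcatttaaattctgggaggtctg
Bglap promoter, chr3:88384467-88384716, minus strand: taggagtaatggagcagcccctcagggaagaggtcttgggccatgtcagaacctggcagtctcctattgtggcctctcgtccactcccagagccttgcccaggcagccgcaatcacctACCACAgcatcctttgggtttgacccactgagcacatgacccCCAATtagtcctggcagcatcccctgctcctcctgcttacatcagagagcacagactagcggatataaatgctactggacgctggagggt
The Ibsp window held a CCAAT box 54 bases before the start site and TGACG 79 bases before it, but no ACCACA. The Spp1 window printed held ACCACA at 128 bases and CCAAT at 46, and the Bglap window ACCACA at 132 and CCAAT at 90. A second Spp1 window, chr5:104435942-104436191, held none of the 4 motifs. Among the others, a Runx2 window held ACCACA at 80 bases and an Alpl window TGACG at 128, and the Sparc window held none of the 4. Among 32851 windows of 250 bases before mouse start sites, ACCACA stood in 14.0%, CCAAT in 33.8%, TGACG in 17.8% and TTCNNNGAA in 7.02%. No motif overlapped another in the windows printed, and a match describes letters only.

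The osteocalcin genes are near copies, which bears on how their reads were counted. Over 285 coding bases Bglap and Bglap2 differed at 4, an identity of 98.6%. Bglap3, the third copy, was 95.4% identical to Bglap and 96.8% to Bglap2. The first 60 coding bases hold 3 of the 4 differences between Bglap and Bglap2, shown in capitals.
Bglap, coding bases 1 to 60: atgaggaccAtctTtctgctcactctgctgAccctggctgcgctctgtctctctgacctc
Bglap2, coding bases 1 to 60: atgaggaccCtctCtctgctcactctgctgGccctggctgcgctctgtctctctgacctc
Bglap3, coding bases 1 to 60: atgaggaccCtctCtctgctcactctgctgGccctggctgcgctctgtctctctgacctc
Of the 391 stretches of 50 bases in the Bglap transcripts, 292 (74.7%) also occurred in Bglap2. The sources used here do not say how reads that fit both copies were counted, so the split of counts between Bglap and Bglap2 is uncertain. Bglap3 had 0 to 13 counts per library and stayed under the filter on low counts.

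The 10 genes covered a wide range of levels. Per kilobase of exon, mean CPM over the 16 libraries was 10205 for Spp1, 285 for Mgp, 234 for Sparc, 37.3 for Bglap2, 27.6 for Tnfrsf11b, 18.6 for Bglap, 12.6 for Ibsp, 2.83 for Runx2, 0.387 for Alpl and 0.0039 for Sp7. Spp1 alone took 1.96% to 3.37% of all counts on day 7 and 0.836% to 1.29% in run 2. Its neighbour Mepe, which lies between Ibsp and Spp1, had 0 to 2 counts per library. In the same cluster Dmp1, an acidic matrix protein of osteocytes, had 590 to 5182 counts per library, and Dspp, a dentin gene, had 0 in all 16.

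**Figure D1:**
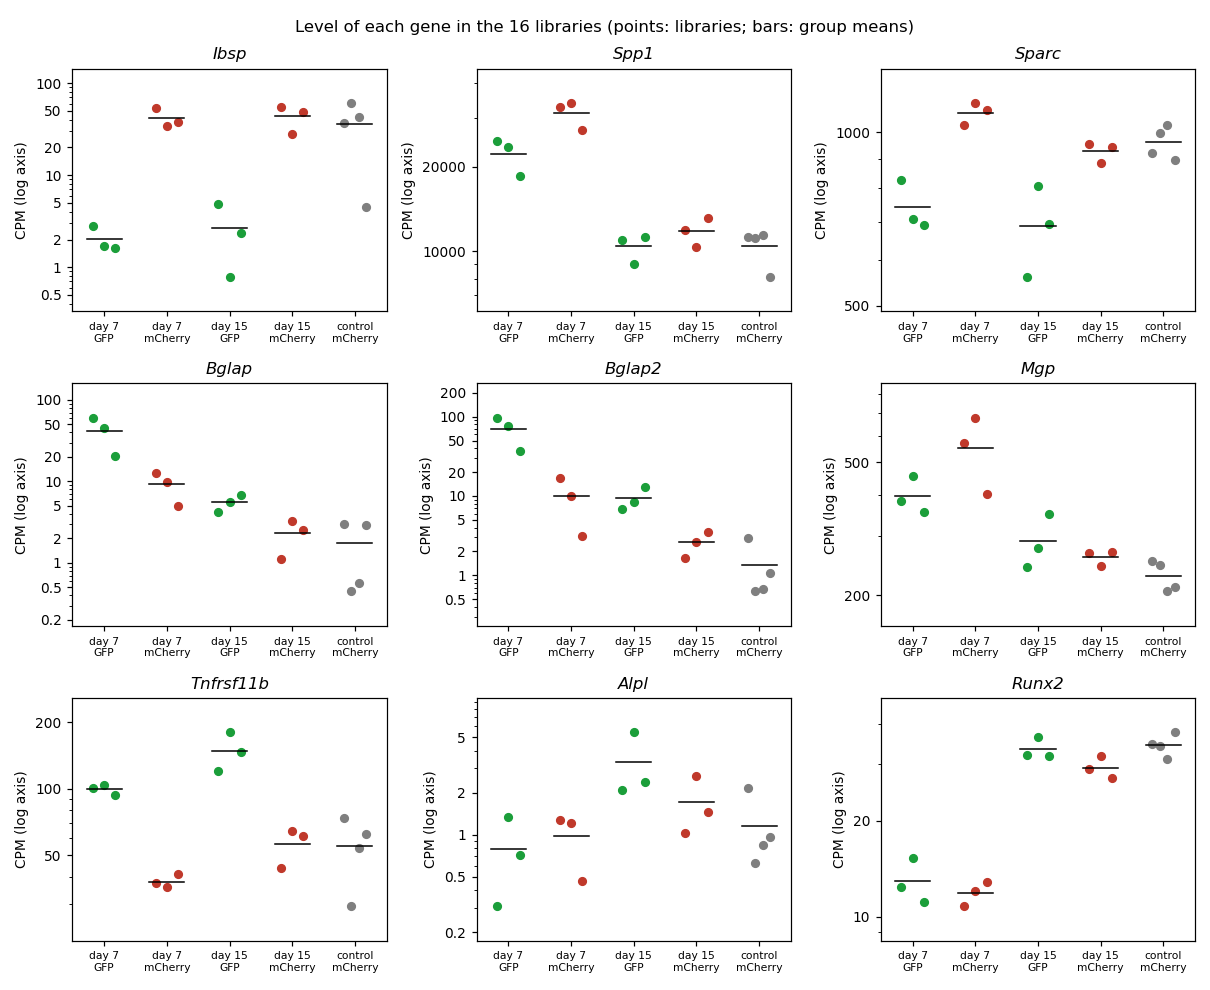
CPM of 9 genes on log axes; each point is 1 library, in the order day 7 GFP, day 7 mCherry, day 15 GFP, day 15 mCherry and control, and bars are group means. Ibsp sits at 0.787 to 4.91 CPM in the 6 GFP libraries, and at 27.9 to 60.4 CPM in the mCherry and control libraries other than control 4.

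Ibsp, the bone sialoprotein, was the gene of the 10 with the widest difference, and it was low in GFP cells on both days. In tumours injected on day 7 it had 2.77, 1.72 and 1.64 CPM in GFP cells (23 to 27 counts), against 54.0, 34.5 and 38.1 CPM in mCherry cells of tumours 2, 3 and 4. In tumours injected on day 15 it had 4.91, 0.787 and 2.36 CPM in GFP cells, against 55.0, 27.9 and 48.7 CPM in mCherry cells of tumours 1, 2 and 3. The groups did not overlap on either day, and every tumour showed the same direction. Tumour numbers are those of the count columns. Within-tumour log2 differences were −4.24, −4.26 and −4.46 on day 7 and −3.46, −4.99 and −4.31 on day 15. The fitted log2 fold change was −4.36 (SE 0.17, n = 3 tumours) on day 7 and −4.16 (SE 0.23, n = 3 tumours) on day 15, which are 20.5-fold and 17.8-fold lower levels.

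Control tumours had 37.0, 60.4, 42.9 and 4.47 CPM of Ibsp. Control 4 thus lay within the range of the day 15 GFP libraries, while the other 3 lay among the mCherry libraries. The day 15 GFP libraries are those of a contrast that chose the genes. Adjusted p-values of day 15 GFP cells against controls are therefore no independent test, for Ibsp or for the genes below. By edgeR's quasi-likelihood test, Ibsp was 13.7-fold lower in day 15 GFP cells than in controls (log2 −3.77, SE 0.86, adjusted p = 0.0272). That call was lost without any 1 of the 3 GFP libraries or control 3, with adjusted p between 0.0590 and 0.0847. Without GFP library 1 the fold itself was 22.8 (log2 −4.51, adjusted p = 0.0720). Day 15 mCherry cells stood at 43.9 ± 14.2 CPM and controls at 36.2 ± 23.4 CPM (SD, n = 3 and 4), a log2 difference of 0.27 (SE 0.62, adjusted p = 0.866) that turns to −0.09 without control 4.

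Bglap2 and Bglap, the osteocalcin copies, were higher in GFP cells in every tumour. On day 7 Bglap2 had 96.6, 76.0 and 37.0 CPM in GFP cells, against 16.8, 9.96 and 3.10 CPM in mCherry cells. On day 15 it had 6.93, 8.44 and 13.1 CPM in GFP cells, against 1.65, 2.60 and 3.54 CPM in mCherry cells. The groups did not overlap on either day. The fitted log2 fold change of Bglap2 was 2.94 (SE 0.18) on day 7 and 1.87 (SE 0.18) on day 15, or 7.69-fold and 3.66-fold higher in GFP cells.

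Bglap had 60.2, 44.8 and 20.8 CPM in day 7 GFP cells, against 12.6, 9.90 and 5.04 CPM in day 7 mCherry cells. In tumours of day 15 it had 4.23, 5.55 and 6.88 CPM in GFP cells, against 1.11, 3.25 and 2.56 CPM in mCherry cells. These groups did not overlap either. The log2 fold change of Bglap was 2.18 (SE 0.14) on day 7 and 1.32 (SE 0.25) on day 15. The ratio of Bglap2 to Bglap counts was 1.60 to 1.78 in day 7 GFP libraries and 0.615 to 1.33 in day 7 mCherry libraries. On day 15 it was 1.52 to 1.90 in GFP and 0.800 to 1.48 in mCherry libraries. With the 3 copies summed into 1 feature, the log2 fold change was 2.59 on day 7 and 1.60 on day 15.

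Control tumours had 2.98, 0.626, 0.676 and 1.08 CPM of Bglap2 and 3.01, 0.447, 0.575 and 2.91 CPM of Bglap. Bglap2 was 7.05-fold higher in day 15 GFP cells than in controls (log2 2.82, SE 0.50, edgeR adjusted p = 0.0152), and it passed in each alternative run. As for Ibsp, these passes are no independent test. Without control 1 the difference was 12.04-fold (log2 3.59). Bglap was at log2 1.69 (SE 0.60, adjusted p = 0.0909), which did not pass. It passed with the filter on low counts removed (adjusted p = 0.0330) and with the 3 copies summed (0.0257). Against controls, day 15 mCherry cells differed by log2 0.94 (SE 0.55, adjusted p = 0.445) for Bglap2 and 0.41 (SE 0.68, adjusted p = 0.803) for Bglap. Mean levels of both genes were higher in run 1 than in run 2 within each colour, and the mCherry libraries of day 7 overlapped the GFP libraries of day 15.

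Tnfrsf11b, the osteoprotegerin gene, was higher in GFP cells by about the same factor on both days. It had 101, 104 and 93.1 CPM in day 7 GFP cells, against 37.3, 35.7 and 40.9 CPM in day 7 mCherry cells. It had 120.3, 179.5 and 146 CPM in day 15 GFP cells, against 43.9, 64.1 and 61.3 CPM in day 15 mCherry cells. The 6 GFP libraries all lay above the 10 others, since the controls had 73.8, 29.4, 53.9 and 62.2 CPM. The log2 fold change was 1.40 (SE 0.11) on day 7 and 1.40 (SE 0.09) on day 15, or 2.64-fold and 2.63-fold. Against controls it was 1.44 (SE 0.27, edgeR adjusted p = 0.0164) in day 15 GFP cells and 0.04 (SE 0.27, adjusted p = 0.965) in day 15 mCherry cells. The value for GFP cells is no independent test, as for Ibsp. The call in GFP cells was lost without GFP library 1, just above the threshold, or without GFP library 2 (adjusted p = 0.0574).

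**Figure D2:**
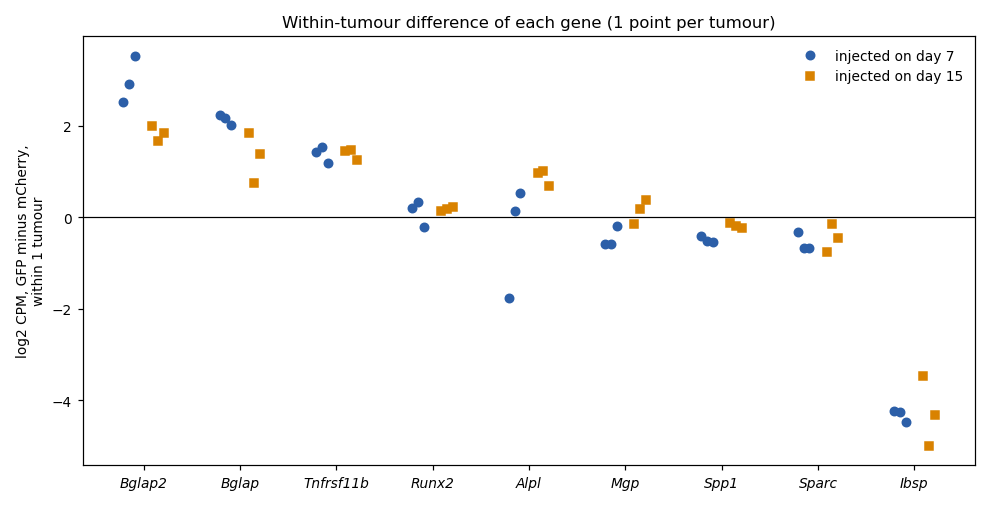
Log2 CPM of GFP cells minus mCherry cells within each tumour, 1 point per tumour, for tumours injected on day 7 (circles) and on day 15 (squares). Bglap2, Bglap and Tnfrsf11b lie above 0 and Ibsp, Sparc and Spp1 below 0 in all 6 tumours; Runx2, Alpl and Mgp have tumours on both sides.

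The abundant matrix genes moved by smaller amounts. Sparc had 826, 708 and 691 CPM in day 7 GFP cells, against 1029, 1124 and 1096 CPM in day 7 mCherry cells. It had 562, 806 and 694 CPM in day 15 GFP cells, against 953, 885 and 942 CPM in day 15 mCherry cells. The GFP libraries lay below all mCherry libraries on each day, by log2 −0.53 (SE 0.11) and −0.45 (SE 0.12). The controls averaged 962 ± 63.7 CPM (SD, n = 4), all above the GFP libraries. Against them Sparc was lower in day 15 GFP cells (log2 −0.49, SE 0.12, edgeR adjusted p = 0.0376) and at −0.06 (SE 0.08, adjusted p = 0.751) in day 15 mCherry cells. Here too the value for GFP cells is no independent test. The GFP call was lost when GFP library 1 or 3, or control 1, 2 or 3, was left out, with adjusted p between 0.0528 and 0.0955.

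Spp1, or osteopontin, was lower in GFP cells in each of the 6 tumours. It had 24763, 23550.0 and 18649 CPM in day 7 GFP cells, against 32642, 33749.7 and 26992 CPM in day 7 mCherry cells. The groups did not overlap on day 7. For day 15 it had 11024, 9033 and 11286 CPM in GFP cells, against 11931, 10335 and 13175 CPM in mCherry cells, and these groups overlapped. The log2 fold change was −0.47 (SE 0.11) on day 7 and −0.18 (SE 0.11) on day 15. Controls had 11235, 11120.1, 11476 and 8119.6 CPM, the last of them control 4. Against controls Spp1 was at log2 −0.01 (SE 0.15, adjusted p = 0.983) in day 15 GFP cells and 0.17 (SE 0.14, adjusted p = 0.583) in day 15 mCherry cells.

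Mgp, the matrix Gla protein, was lower in the GFP cells of every day 7 tumour, while the day 15 tumours went both ways. It averaged 397 ± 51.4 CPM in day 7 GFP cells and 549.6 ± 139.9 CPM in day 7 mCherry cells, and 290.2 ± 54.2 CPM in day 15 GFP cells and 261 ± 14.2 CPM in day 15 mCherry cells (SD, n = 3 each). The groups overlapped on both days. Within-tumour log2 differences were −0.57, −0.58 and −0.18 on day 7 and −0.14, 0.18 and 0.37 on day 15. The fitted log2 fold change was −0.43 (SE 0.11) on day 7 and 0.14 (SE 0.10) on day 15. Controls averaged 229 ± 23.7 CPM (SD, n = 4), and neither day 15 GFP cells (log2 0.34, SE 0.13, edgeR adjusted p = 0.112) nor day 15 mCherry cells (0.18, SE 0.09, adjusted p = 0.389) passed against them.

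Alkaline phosphatase and Sp7 were low, while Runx2 had at least 121 counts in every library. Runx2 had 12.4, 15.3 and 11.1 CPM in day 7 GFP cells, against 10.8, 12.1 and 12.9 CPM in day 7 mCherry cells, and the groups overlapped. It had 31.9, 36.4 and 31.9 CPM in day 15 GFP cells, against 28.9, 31.8 and 27.0 CPM in day 15 mCherry cells, so that the GFP libraries lay just above the mCherry libraries, by log2 0.15 to 0.24 within tumours. Its log2 fold change was 0.13 (SE 0.18) on day 7 and 0.19 (SE 0.09) on day 15. Controls averaged 34.4 ± 2.63 CPM (SD, n = 4), with adjusted p = 0.777 for day 15 GFP cells (log2 −0.04, SE 0.09) and 0.311 for day 15 mCherry cells (−0.24, SE 0.09). Antisense genes Runx2os1 to Runx2os3 and the gene Supt3 overlap the locus, and reads on the 2 strands may not have been told apart.

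Alpl had 3 to 124 counts per library. It stood at 0.308, 1.34 and 0.720 CPM in day 7 GFP cells, against 1.28, 1.21 and 0.465 CPM in day 7 mCherry cells. On day 15 it stood at 2.11, 5.42 and 2.40 CPM in GFP cells, against 1.03, 2.64 and 1.45 CPM in mCherry cells. The groups overlapped on both days, but within tumours Alpl was higher in the GFP cells of 3 of 3 on day 15, by log2 0.98, 1.01 and 0.70. The log2 fold change was −0.28 (SE 0.54) on day 7, where it turned to 0.35 without tumour 2, and 0.94 (SE 0.25) on day 15. Against controls (1.15 ± 0.697 CPM, SD, n = 4) it was 1.52 (SE 0.48, edgeR adjusted p = 0.0651) in day 15 GFP cells. That adjusted p became 0.0255 without control 1, 0.0132 by DESeq2 and 0.0277 with the filter on low counts removed. In day 15 mCherry cells it was 0.56 (SE 0.48, adjusted p = 0.607). Sp7, the osterix gene, had 0 counts in 12 of 16 libraries and 1 or 2 in the other 4. A count of 0 allows up to 3 counts, or 0.0894 to 0.308 CPM per library, so Sp7 was not detectable at this depth in most libraries.

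**Figure D3:**
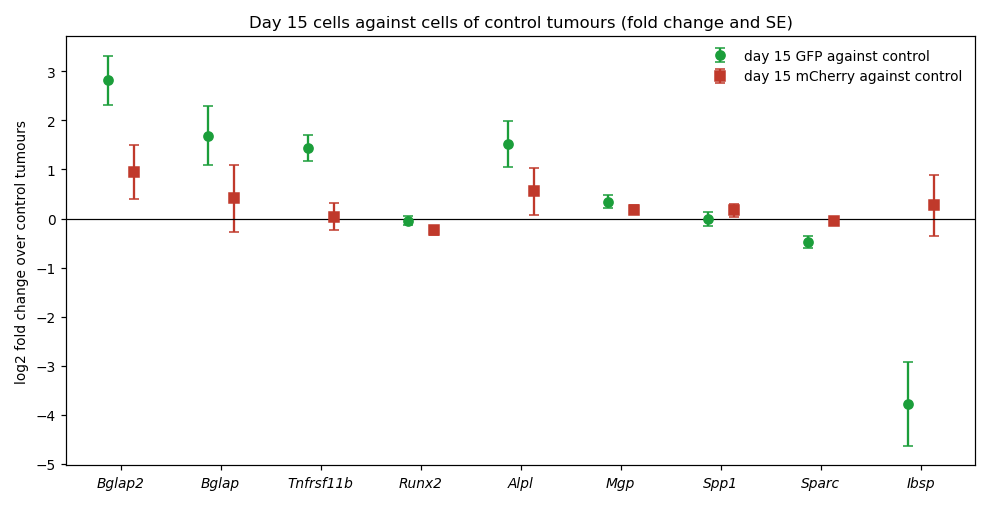
Fitted log2 fold change of day 15 GFP cells (circles) and day 15 mCherry cells (squares) over control mCherry cells for 9 genes, with SE as bars (n = 3 against 4 libraries). Bglap2 at 2.82 and Ibsp at −3.77 lie farthest from 0 in GFP cells, and no gene passed in mCherry cells.

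Counted together, 9 of the 10 genes passed the filter on low counts. On day 7, 3 were past the threshold as higher in GFP cells (an adjusted p of 0.05 or below, Bglap, Bglap2 and Tnfrsf11b) and 4 as lower (Ibsp, Spp1, Sparc and Mgp), where 8.89% of 14578 genes were higher and 9.33% lower. On day 15, 4 were higher (Alpl with the same 3) and 2 lower (Ibsp and Sparc), where 8.94% of 14260 genes were higher and 10.6% lower. Since these contrasts chose the genes, the counts describe them and test nothing, and nothing is read from the counts or those shares. The median log2 fold change of the 9 was −0.28 on day 7 and 0.19 on day 15, beside −0.0037 and 0.0065 over all genes tested.

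The calls for Mgp, Spp1, Sparc and Alpl changed in some runs with 1 tumour left out or without the pairing of libraries by tumour. On day 7 Spp1 and Mgp were not past the threshold without tumour 2, without tumour 3 or without the tumour block, and Sparc was not without tumour 3. On day 15 Alpl was not without tumour 2, tumour 3 or the block, nor by DESeq2, and Sparc was not without tumour 3, while Mgp passed without tumour 1. Ibsp, Bglap, Bglap2 and Tnfrsf11b were past it under each alternative run, on both days. As the same contrasts chose the genes, these passes are no separate support for their differences.

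Against controls, 2 of 9 were higher in day 15 GFP cells (Bglap2 and Tnfrsf11b) and 2 lower (Ibsp and Sparc), where 6.09% of 14801 genes were higher and 6.97% lower. The GFP libraries here are those of the day 15 contrast that chose the genes, so this is no independent test. In day 15 mCherry cells 0 of 9 passed in either direction, where 0% of 14800 genes were higher and 0% lower by edgeR. Over all genes of that comparison, 2104 had an unadjusted p under 0.05, the smallest adjusted p was 0.251, and DESeq2 called 262, none of them among the 10. Median log2 fold changes of the 9 were 0.34 in GFP cells and 0.18 in mCherry cells, beside −0.0022 and −0.0049 over all genes.

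The 10 genes did not vary as a block. Over the 16 libraries, with each sequencing run centred on its mean, log2 CPM of Ibsp had Pearson r of −0.91 with Tnfrsf11b, −0.78 with Bglap, −0.74 with Bglap2, 0.78 with Sparc and 0.73 with Spp1. Bglap2 had r of 0.93 with Bglap and 0.87 with Tnfrsf11b. Runx2 had r between −0.50 and 0.30 with each other gene. These values describe 16 libraries that share tumours, runs and the contrast of the 2 colours.

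Of 13245 genes compared in this way, those nearest to Ibsp were Tnnt2, a cardiac troponin gene (r = 0.98), Cilp, a cartilage matrix gene (0.95), Acsbg1, an acyl-CoA synthetase (0.95), and P2ry14, a receptor for UDP sugars (0.95). Tnnt2 averaged 13.2 ± 2.17 CPM in day 7 GFP cells and 54.3 ± 15.9 CPM in day 7 mCherry cells, and 29.5 ± 10.7 CPM in day 15 GFP cells and 104 ± 39.5 CPM in day 15 mCherry cells (SD, n = 3 each). Those nearest to Bglap2 were Pttg1ip (0.95), Fam172a (0.94), the stress gene Gadd45b (0.93) and Bglap (0.93). Gadd45b averaged 25.7 ± 3.42 CPM in day 7 GFP cells and 9.63 ± 2.07 CPM in day 7 mCherry cells, and 26.0 ± 1.56 CPM in day 15 GFP cells and 13.2 ± 2.18 CPM in day 15 mCherry cells (SD, n = 3 each).

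Other genes of bone matrix and mineral were split in direction. On day 7, 3 of 15 tested were higher in GFP cells and 5 lower, and on day 15, 2 of 16 were higher and 5 lower, with list medians of log2 −0.02 and −0.21. Over all genes tested, 8.89% were higher and 9.33% lower on day 7, and 8.94% higher and 10.6% lower on day 15, and the counts of this and the following lists stand beside those shares. No list was tested against them. Ogn (osteoglycin), a small proteoglycan of bone and connective tissue, averaged 32.0 ± 3.61 CPM in day 7 GFP cells and 11.3 ± 2.27 CPM in day 7 mCherry cells (log2 1.53, SE 0.18, adjusted p = 0.000431). In tumours of day 15 it averaged 44.9 ± 19.9 CPM in GFP cells and 8.85 ± 3.26 CPM in the mCherry cells (log2 2.32, SE 0.11, adjusted p = 5.77e-06). Phex, an osteocyte protease that acts in phosphate balance, was also higher on both days (0.72, SE 0.12, adjusted p = 0.00330, and 0.56, SE 0.17, adjusted p = 0.0455). Dmp1 was higher on day 7 (0.58, SE 0.11, adjusted p = 0.00496) and at −0.17 on day 15 (SE 0.09, adjusted p = 0.213). Adjusted p-values of these and the following genes are from edgeR, over all genes tested.

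Among those lower in GFP cells, Enpp1, which makes the mineral inhibitor pyrophosphate, was at log2 −1.75 on day 7 (SE 0.14, adjusted p = 3.67e-05) and −0.85 on day 15 (SE 0.16, adjusted p = 0.00495). Ank, a transporter that carries pyrophosphate out of cells, was lower on both days by smaller amounts (−0.57, SE 0.11, adjusted p = 0.00774, and −0.38, SE 0.10, adjusted p = 0.0245). Serpinf1, a secreted factor whose loss in people causes brittle bones, fell to 6.49 ± 1.08 CPM in day 7 GFP cells, against 27.3 ± 3.49 CPM in mCherry cells, and to 4.13 ± 1.22 CPM in day 15 GFP cells, against 10.1 ± 1.09 CPM in mCherry cells (SD, n = 3 each; edgeR adjusted p = 7.26e-05 and 0.00154). Col1a1, a chain of collagen I, was lower on both days (−2.12, SE 0.46, adjusted p = 0.0111, and −2.52, SE 0.44, adjusted p = 0.00371). The other chain gene, Col1a2, was at −0.82 on day 7 (SE 0.62, adjusted p = 0.399) and −3.13 on day 15 (SE 0.58, adjusted p = 0.00475). Against controls, Ogn was higher in day 15 GFP cells (2.28, SE 0.46, adjusted p = 0.0199), and Col1a1 (−3.81, SE 0.74, adjusted p = 0.0184), Col1a2 (−4.93, SE 1.00, adjusted p = 0.0203) and Serpinf1 (−1.62, SE 0.42, adjusted p = 0.0391) were lower.

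Genes that act upstream of the matrix genes were set in lists of factors and of signals. Among other osteogenic transcription factors and partners, 1 of 11 was higher and 1 lower in GFP cells on day 7, and 0 and 1 of 11 on day 15, with medians of 0.10 and 0.02. Each count was within 1 gene of the shares of all genes, 8.89% higher and 9.33% lower on day 7 and 8.94% higher and 10.6% lower on day 15. Sox9, a cartilage and progenitor factor, was higher on day 7 (log2 0.50, SE 0.10, adjusted p = 0.00774) and Mef2c lower from at most 35 counts (−1.69, SE 0.51, adjusted p = 0.0449). Wwtr1 (TAZ), a co-activator of Runx2, was lower on day 15 (−0.27, SE 0.08, adjusted p = 0.0456). Dlx3, Dlx5, Dlx6, Msx1 and Msx2, homeobox factors of osteoblasts, were under the filter in all 4 comparisons.

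Among BMP and Wnt signals to osteoblasts, 0 of 17 were higher and 2 lower in GFP cells on day 7, and 1 of 17 higher and 4 lower on day 15, with medians of −0.22 and −0.08, where 9.33% and 10.6% of all genes were lower. Sfrp1, a Wnt antagonist, was lower on both days (log2 −0.62, SE 0.18, adjusted p = 0.0358, and −0.56, SE 0.16, adjusted p = 0.0308). The BMP target Id1 was lower on day 7 (−0.54, SE 0.13, adjusted p = 0.0206). Id2, another inhibitor of differentiation, averaged 17.3 ± 3.68 CPM in day 7 GFP cells and 20.7 ± 3.74 CPM in day 7 mCherry cells, and 12.8 ± 1.70 CPM in day 15 GFP cells and 4.07 ± 0.672 CPM in day 15 mCherry cells (SD, n = 3 each). It was higher on day 15 (1.65, SE 0.18, adjusted p = 0.000255) and against controls (1.20, SE 0.17, adjusted p = 0.00998). The BMP receptor gene Bmpr2 (−0.34, SE 0.08, adjusted p = 0.0134) and the inhibitory Smad7 (−0.31, SE 0.08, adjusted p = 0.0244) were lower on day 15. Bmp2, a ligand, averaged 0.158 ± 0.0948 CPM in day 15 GFP cells and 0.793 ± 0.426 CPM in controls (SD, n = 3 and 4), from at most 48 counts. Within tumours Bmp2 was under the filter on low counts, and it passed that filter here only through the controls, so no p-value is given for it. Wnt10b averaged 33.3 ± 0.710 CPM in day 15 GFP cells and 40.0 ± 1.68 CPM in controls (log2 −0.26, SE 0.07, adjusted p = 0.0435).

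**Figure D4:**
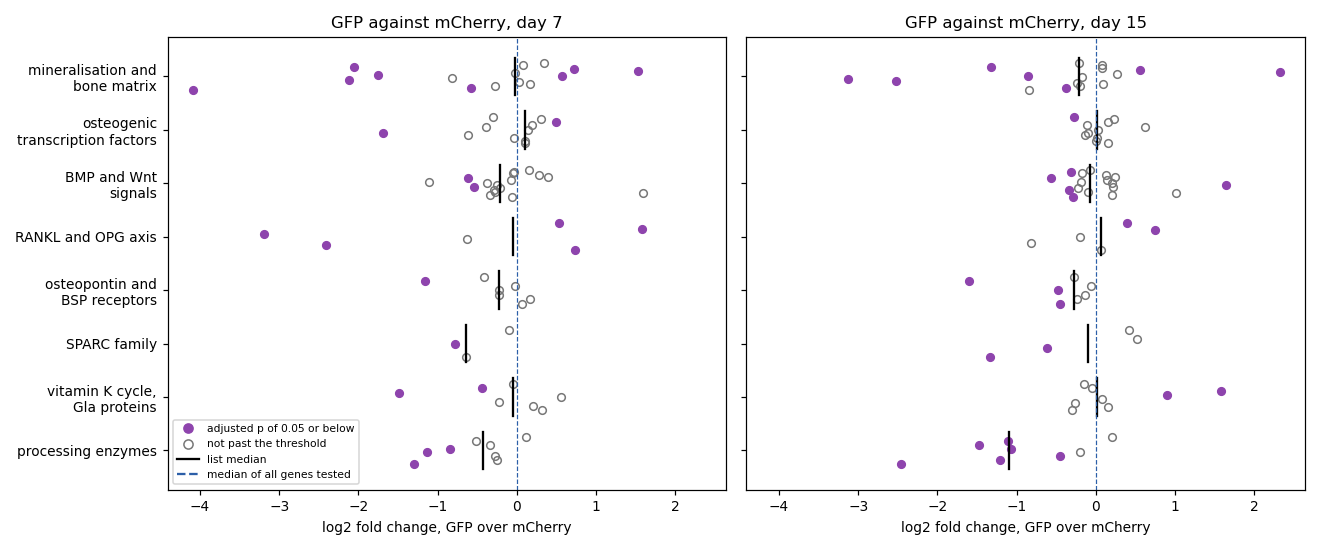
Log2 fold change of GFP over mCherry cells for the genes of 8 lists on day 7 and day 15; filled points passed an adjusted p of 0.05, black bars are list medians and the dashed line is the median of all genes tested. The processing enzymes lie mostly below 0, with medians of −0.43 and −1.09.

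In the axis of RANKL and osteoprotegerin, the ligand gene Tnfsf11 (RANKL) itself was under the filter in all 4 comparisons. Of the other genes, 3 of 6 were higher and 2 lower in GFP cells on day 7, and 2 of 5 higher and 0 lower on day 15, with medians of −0.05 and 0.07. Over all genes tested, 8.89% were higher and 9.33% lower on day 7, and 8.94% higher and 10.6% lower on day 15. Tnfsf10 (TRAIL), a death ligand that osteoprotegerin also binds, averaged 9.75 ± 1.64 CPM in day 7 GFP cells and 3.27 ± 0.317 CPM in day 7 mCherry cells (SD, n = 3 each; log2 1.58, SE 0.23, adjusted p = 0.00153). On day 15 it was at 0.75 (SE 0.16, adjusted p = 0.00853). Traf6, an adaptor of the RANKL receptor, was higher on both days (0.53, SE 0.14, adjusted p = 0.0287, and 0.39, SE 0.12, adjusted p = 0.0402). Csf1, the macrophage growth factor, was higher on day 7 (0.73, SE 0.11, adjusted p = 0.00141) and at 0.07 on day 15 (SE 0.09, adjusted p = 0.649). Its receptor gene Csf1r, which marks macrophages, was lower on day 7 (−2.41, SE 0.24, adjusted p = 0.000130) and against controls (−3.06, SE 0.52, adjusted p = 0.0137).

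Among receptors of osteopontin and bone sialoprotein, 0 of 7 were higher and 1 lower in GFP cells on day 7, and 0 and 3 of 7 on day 15, with medians of −0.22 and −0.27. Over all genes, 9.33% were lower on day 7, near the share of the list, and 10.6% on day 15. Itgb3, the chain of the vitronectin receptor that binds both proteins, averaged 17.2 ± 3.65 CPM in day 7 GFP cells and 38.8 ± 5.39 CPM in day 7 mCherry cells (SD, n = 3 each; log2 −1.17, SE 0.19, adjusted p = 0.00272). It averaged 34.7 ± 3.71 CPM in day 15 GFP cells, 105.7 ± 14.0 CPM in day 15 mCherry cells and 68.9 ± 18.8 CPM in controls (SD, n = 3, 3 and 4). Its log2 fold change was −1.60 (SE 0.09, adjusted p = 8.47e-06) within tumours of day 15, and −0.99 (SE 0.19, adjusted p = 0.0186) against controls. The partner chain Itgav (−0.47, SE 0.10, adjusted p = 0.00756) and the osteopontin receptor Cd44 (−0.45, SE 0.09, adjusted p = 0.00632) were lower on day 15. Itga9, another integrin chain that binds osteopontin, had 1 count in each day 15 GFP library, against 17 to 74 in controls. Within tumours Itga9 was under the filter on low counts, and it passed that filter here only through the controls, so no p-value is given for it.

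Enzymes that cut or phosphorylate these proteins were lower in GFP cells wherever they passed. On day 7, 0 of 8 were higher and 3 lower, and on day 15, 0 and 6 of 8, with medians of −0.43 and −1.09, where 9.33% and 10.6% of all genes were lower. The stromelysin Mmp3 averaged 240 ± 41.8 CPM in day 7 GFP cells and 447 ± 151 CPM in day 7 mCherry cells, and 119 ± 14.1 CPM in day 15 GFP cells and 249 ± 20.5 CPM in day 15 mCherry cells (SD, n = 3 each). Its log2 fold change was −0.84 (SE 0.12, adjusted p = 0.00117) and −1.07 (SE 0.08, adjusted p = 4.10e-05). The gelatinase Mmp2 was lower on day 7 (−1.14, SE 0.14, adjusted p = 0.000480), and the collagenase Mmp13 (−1.21, SE 0.13, adjusted p = 0.000219) and the gelatinase Mmp9 (−1.47, SE 0.18, adjusted p = 0.000437) on day 15. Fam20c, the kinase that phosphorylates secreted matrix proteins, was lower on both days from at most 81 counts (−1.29, SE 0.33, adjusted p = 0.0224, and −2.46, SE 0.53, adjusted p = 0.00950). Against controls, Fam20c (−2.46, SE 0.65, adjusted p = 0.0413) and the urokinase gene Plau (−0.63, SE 0.16, adjusted p = 0.0363) were lower in day 15 GFP cells.

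Relatives of Sparc and of the Gla proteins made short lists. In the SPARC family, 0 of 3 were higher and 1 lower on day 7, and 0 and 2 of 4 on day 15, with medians of −0.65 and −0.10, where 9.33% and 10.6% of all genes were lower. Smoc1 was lower on both days (log2 −0.78, SE 0.23, adjusted p = 0.0415, and −0.61, SE 0.14, adjusted p = 0.0126), and Fstl1 on day 15 (−1.34, SE 0.30, adjusted p = 0.0114) and against controls (−2.67, SE 0.64, adjusted p = 0.0318). Of the vitamin K cycle and other Gla proteins, 0 of 7 were higher and 2 lower on day 7, and 2 and 0 of 8 on day 15, where 8.94% of all genes were higher, with medians of −0.05 and 0.02. Ucma, a cartilage Gla protein, averaged 0.940 ± 0.281 CPM in day 7 GFP cells and 2.70 ± 0.886 CPM in day 7 mCherry cells, and 2.84 ± 1.95 CPM in day 15 GFP cells and 0.842 ± 0.0875 CPM in day 15 mCherry cells (SD, n = 3 each). It was lower on day 7 (−1.49, SE 0.34, adjusted p = 0.0152) and higher on day 15 (1.58, SE 0.39, adjusted p = 0.0192). Vkorc1, the reductase that recycles vitamin K, was lower on day 7 (−0.43, SE 0.10, adjusted p = 0.0172), and Prrg4 was higher on day 15 (0.90, SE 0.28, adjusted p = 0.0495). In the same 8 lists, 0 genes passed between day 15 mCherry cells and controls.

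Many list calls were lost in edgeR when 1 tumour or library was left out. The number of calls over all genes changed as well, on day 7 from 2656 to 1156 without tumour 3. A lost call therefore need not mean a smaller fold. Without that tumour Mef2c was at log2 −2.22 and Sfrp1 at −0.39, and neither was called. On day 7, 10 of 22 named calls were lost in at least 1 alternative, each of them without tumour 3: Sox9 (adjusted p = 0.117), Id1 (0.0732), Sfrp1 (0.328), Smoc1 (0.322), Vkorc1 (0.193), Fam20c (0.0624), Traf6 (0.0950), Dmp1 (0.0652), Mef2c (0.0543) and Ucma (0.0544). Without tumour 2, Id1, Vkorc1, Fam20c, Traf6, Mef2c and Ucma were lost as well (adjusted p between 0.0535 and 0.170), and Mef2c also without tumour 4 (0.0523). Enpp1, Serpinf1, Ogn, Phex, Ank, Csf1r, Csf1, Tnfsf10, Itgb3, Mmp2 and Mmp3 were among those called on day 7 in each alternative run.

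On day 15, 15 of 25 named calls were lost in at least 1 alternative. Without tumour 3 they were Prrg4 (adjusted p = 0.274), Wwtr1 (0.251), Phex (0.228), Smad7 (0.144), Traf6 (0.113), Ank (0.107), Tnfsf10 (0.0863), Itgav (0.0657), Fstl1 (0.0644) and Ucma (0.0597). Without tumour 2 they were Wwtr1, Ank, Smad7, Ucma, Bmpr2 and Cd44 (adjusted p between 0.0661 and 0.259), and without tumour 1 Traf6, Phex, Prrg4 and Sfrp1 (between 0.0610 and 0.132). By DESeq2, Col1a2 (adjusted p = 0.179), Phex (0.265), Prrg4 (0.0752) and Wwtr1 (0.0516) were lost. Without the tumour block, Enpp1 (0.0873) and Col1a2 (0.0733) were lost too, as were Tnfsf10, Ank, Wwtr1, Cd44, Prrg4, Phex, Fstl1 and Sfrp1 (between 0.0513 and 0.168). Col1a1, Id2, Itgb3, Mmp3, Mmp9, Mmp13, Ogn, Serpinf1 and Smoc1 were called on day 15 in each alternative run. Against controls, 12 of 13 calls were lost without GFP library 1, and Id2 was called in each alternative. Bmp2 and Itga9 are among the 12, but they passed the filter only through the controls, so nothing is read from their calls. The others lost had adjusted p between 0.0575 and 0.136. Leaving out 1 library moved the fold of some list genes by over 1.5 times. Col1a1 on day 7 was at log2 −3.03 without tumour 2. On day 15 Col1a1 was at −3.35 without tumour 2 and −1.81 without tumour 3, Fam20c at −3.37 without tumour 2, and Col1a2 at −1.98 without tumour 3. Against controls, Col1a2 was at −5.70 without GFP library 1 and −3.85 without control 2, Col1a1 at −2.88 and Itga9 at −3.72 without control 2, and Fam20c at −3.62 without GFP library 2.

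Markers of other cell types were lower in GFP libraries as well. The 12 macrophage markers summed to 102 to 165 CPM in day 7 GFP libraries and 596 to 844 CPM in day 7 mCherry libraries, and 12 of 12 were lower. On day 15 they summed to 55.4 to 73.3 CPM in GFP and 89.5 to 111 CPM in mCherry libraries, with 6 of 10 tested lower, and to 78.8 to 201 CPM in controls. The endothelial markers summed to 10.5 to 11.6 CPM in day 7 GFP libraries and 35.5 to 65.1 CPM in day 7 mCherry libraries, with 8 of 8 lower. On day 15 they summed to 14.4 to 19.1 CPM in GFP and 19.8 to 42.7 CPM in mCherry libraries, with 3 of 10 lower, and to 22.1 to 95.7 CPM in controls. Over all genes tested, 9.33% were lower in GFP cells on day 7 and 10.6% on day 15. The median log2 fold change of the 8 endothelial markers tested on day 7 was −3.44. A gene can pass the filter on low counts through the mCherry libraries alone. For markers that low in GFP cells, the counts of lower genes are therefore a description and no support. The genes of the 10 that were lower in GFP cells moved in the direction of the summed marker levels, and the part of such cells in those results was not tested.

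**Figure D5:**
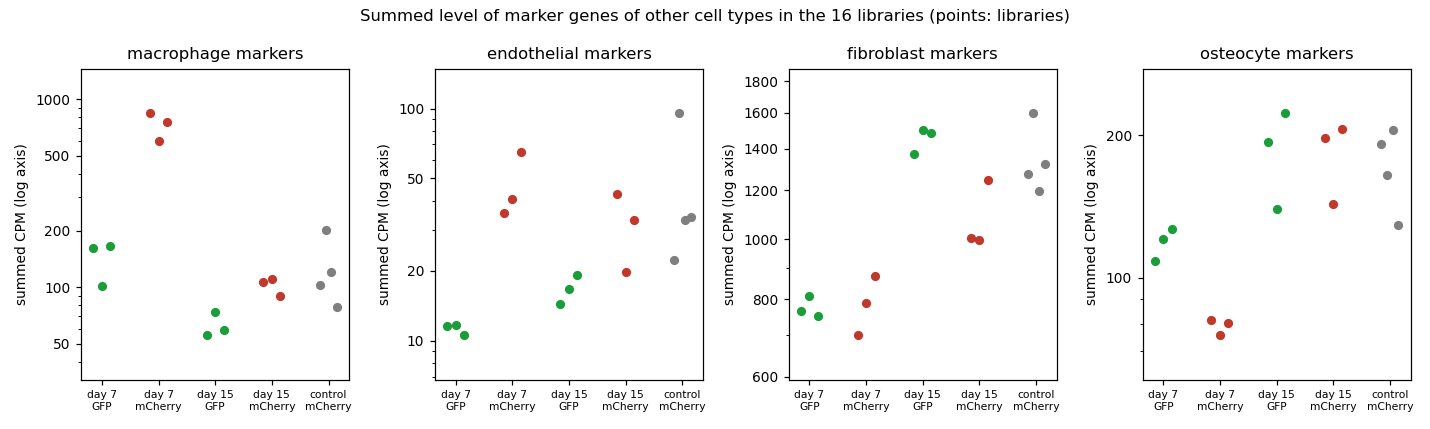
Summed CPM of 4 marker lists on log axes, 1 point per library, in the order day 7 GFP, day 7 mCherry, day 15 GFP, day 15 mCherry and control. Macrophage sums of 102 to 165 CPM in day 7 GFP libraries stand against 596 to 844 CPM in day 7 mCherry libraries.

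Fibroblast, pericyte and bone cell markers gave a mixed picture. Fibroblast markers summed to 752 to 811 CPM in day 7 GFP and 699.7 to 874 CPM in day 7 mCherry libraries, with 0 of 5 higher and 1 lower. On day 15 they summed to 1374 to 1503 CPM in GFP and 998 to 1245 CPM in mCherry libraries, with 1 of 9 higher (Dcn) and 4 lower, and to 1195 to 1599 CPM in controls. Dcn and Pdgfra led these sums. The median log2 fold change of the fibroblast markers tested was −1.15 on day 7 and −1.51 on day 15. Over all genes tested, 8.89% were higher in GFP cells and 9.33% lower on day 7, and 8.94% higher and 10.6% lower on day 15. Pericyte markers summed to 26.4 to 33.4 CPM in day 7 GFP and 34.0 to 53.3 CPM in day 7 mCherry libraries, and to 60.4 to 117 CPM in day 15 GFP and 95.7 to 125 CPM in day 15 mCherry libraries. Osteocyte markers, led by Dmp1 and Phex, summed to 108 to 127 CPM in day 7 GFP and 75.6 to 81.3 CPM in day 7 mCherry libraries, and to 139.6 to 223 CPM in day 15 GFP and 143 to 207 CPM in day 15 mCherry libraries, which overlapped, while Sost, Mepe and Fgf23 were under the filter in all 4 comparisons. Chondrocyte markers, led by Sox9, summed to 251 to 307 CPM in day 7 GFP and 197 to 216 CPM in day 7 mCherry libraries, and to 311 to 339 CPM in day 15 GFP and 263 to 321 CPM in day 15 mCherry libraries, which overlapped. Osteoclast markers, led by Nfatc1 and Acp5, summed to 76.5 to 92.9 CPM in day 7 GFP and 84.3 to 92.3 CPM in day 7 mCherry libraries, with 0 of 4 tested past the threshold. On day 15 they summed to 51.2 to 65.5 CPM in GFP and 84.5 to 92.5 CPM in mCherry libraries, without overlap, with Nfatc1 and Mmp9 lower of 4 tested. Calcr, Ocstamp, Dcstamp and Oscar were under the filter on both days. Neutrophil markers, led by S100a8 and S100a9, summed to 5.17 to 12.99 CPM in day 7 GFP and 9.85 to 39.1 CPM in day 7 mCherry libraries, and to 1.16 to 4.13 CPM in day 15 GFP and 2.61 to 17.7 CPM in day 15 mCherry libraries. The epithelial tumour markers also differed, with Krt8 and Krt18 lower and Cdh1 higher in GFP cells on both days. Their list summed to 450.2 to 656 CPM in day 7 GFP and 989.8 to 1389 CPM in day 7 mCherry libraries, and to 459 to 548 CPM in day 15 GFP and 627 to 931 CPM in day 15 mCherry libraries. The part of these cells and of that shift in the results for the 10 genes was not tested.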

How the data were processed

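RNA of sorted 4T07 cells was sequenced in 16 libraries. Per the labels' protocols, digested tumours were sorted after staining with CD45 and DAPI, RNA was extracted with miRNeasy Micro or a low input kit, and a company made the deposited gene counts, which are raw counts. The build was mm10, per the submitters' processing notes; aligner, counter, annotation and strand handling were not given in the sources used here. Tables of DESeq2 results that the authors deposited went unused. The 176 rows without a symbol, at most 0.0110% of a library's counts, were left out.

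Genes were filtered with edgeR 4.0.16 filterByExpr (minimum count 10, minimum total 15), scaled by TMM and tested by quasi-likelihood F-test (R 4.3.3), with Benjamini-Hochberg adjustment over all genes of a comparison and a threshold of 0.05. Within a day, the 2 colours were compared with tumour as a block. Day 15 GFP and mCherry cells were each set against the same 4 controls without one, so the comparisons share libraries and are not independent. SE was the log2 fold change divided by the root of F, SD is over libraries, and differences within tumours are of log2 CPM (prior count 2).

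Day 7 count columns are numbered 2 to 4 where labels have 1 to 3, so columns were matched as groups and paired by shared column number; day 15 pairs are also given by the labels' tumour numbers. Residuals of the same number correlated at 0.110 to 0.158 on day 7, where other pairs had −0.126 to 0.00670, and at 0.0901 to 0.232 on day 15, where other pairs had −0.183 to 0.0186. Replicates differed beyond counting error (chi-square of 5.34 to 92.1 for each degree of freedom). Floors of 3 counts cover counting error only.

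The 10 genes and the lists were chosen with earlier results of these data known. The rule for names took all 10 genes, Bglap3 as a near copy, up to 3 genes of smallest p past the threshold per pathway list and comparison, the 2 most abundant markers per list, and the 4 genes nearest in pattern to Ibsp and to Bglap2. Dmp1, Phex, Ank and genes under the filter were named after their values were seen. So were several called results of genes that the rule named in another comparison. These were Col1a1 and Traf6 on day 7, Enpp1, Col1a2, Sfrp1 and Fam20c on day 15, and Serpinf1 in day 15 GFP cells against controls. Alternatives were the DESeq2 1.42.0 test, size factors of that tool, the filter removed or at a minimum count of 50, no block, osteocalcin copies summed, all libraries of run 2 in 1 fit, and each tumour or library left out. The fitting steps were tested on simulated data. Coordinates are from GENCODE M21 (GRCm38) and promoters from RefSeq (GRCm38.p6).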

Additional observations from a re-analysis of the deposited data

Results flagged for a closer look

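A screen of 47 genes named in the text, over the 4 control libraries, marked 7 in which a library lay farther from the others than the critical value for 4 samples; chance marks about 1 in 20 groups. Spp1 was lowest in control 4 at 8119.6 CPM, where the others had 11120 to 11476 CPM. The same library had the lowest Ibsp of the controls, though that gap was under the critical value. Tnfsf10 was highest in control 4 at 33.7 CPM. Control 2 was highest for Serpinf1 (23.8 CPM), Bmp2 (1.43 CPM), Itga9 (2.21 CPM) and Fam20c (2.15 CPM). Bmpr2 was highest in control 1 at 176.8 CPM.

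For Id2 and Ucma the GFP cells lay above their mCherry cells in every tumour of day 15 and below in every tumour of day 7. The median within-tumour log2 difference of day 15 lay 1.58 above that of day 7 for Id2 and 2.78 above it for Ucma. The difference between days was not tested, and day and sequencing run cannot be told apart.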

How the results depend on the processing

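Over the alternatives other than the summed osteocalcin copies, 320 values of the 10 genes kept their direction and side of the threshold. Calls were lost in 23 (12 within tumours, 11 against controls), gained in 5 (1 within tumours, 4 against controls), and the sign changed in 10 (1 within tumours, 9 against controls), in each of those 10 without passing; counts of called genes in a list moved by over 1.5 times in 70 cases and stayed within that in 250. Counts of called genes were 2656 on day 7 (1156 to 4558 with a tumour left out) and 2782 on day 15 (1736 to 2546). No replicate block gave 2159 and 2059. Between day 15 mCherry cells and controls the count was 0, against 262 by DESeq2, and 0 to 7 with a library left out, 7 of them without control 4. Between day 15 GFP cells and controls it was 1933, against 2953 by DESeq2 and 287 to 2093 with a library left out: 287, 520 and 914 without GFP libraries 1, 2 and 3, 928 and 807 without controls 2 and 3. The cause was not tested.

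Signs changed for Alpl on day 7 (0.350 without tumour 2, down to −0.623), Ibsp in mCherry cells against controls (−0.0929 without control 4, up to 0.637 without control 2), Tnfrsf11b there (−0.0635 and −0.0334 without mCherry libraries 2 and 3, −0.173 without control 2, up to 0.202 without control 1), Spp1 in GFP cells against controls (0.0949 without GFP library 2, and 0.0265, 0.0204 and 0.0369 without controls 1, 2 and 3, down to −0.113 without control 4) and Runx2 there (0.000372 without control 4, down to −0.103 without GFP library 2). Low counts limit Alpl, Sp7 and Bglap3.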
